A study of Mus musculus with 8 samples.

Results

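Lysosomal hydrolases and lysosomal membrane proteins were followed in dermal fibroblasts of young and old mice. The list holds 41 genes: cathepsins, glycosidases, sulfatases, lipid enzymes with their helper and transfer proteins, membrane proteins, the regulator Tfeb and the growth factor precursor Grn. Members were taken by gene symbol, from probe sets annotated to that symbol alone, and 39 of the 41 had one, among 17097 genes in all. Idua and Neu1 had none and were not analysed here. Where a gene had several probe sets, the one of highest mean over the arrays gave its value.

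The young group held 4 mice aged 2 months and the old group 4 mice aged 18 months, with 1 array per animal. Per the series' design text, 1 young and 1 old animal were taken on each collection day. After collagenase digestion of the dermis, cells carrying Pdgfra and CD34 were sorted, and those with CD45 (blood cells), CD31 (endothelium), EpCam (epithelium), CD117 or CD24 on their surface were left out. Strain, genotype, sex and any treatment were not given in the sources used here. Values are log2 levels, so a difference of 1 is a doubling. Differences are old minus young, "called" means an adjusted p under 0.05 over all genes, and replicates are separate animals.

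Lysosomes are acidic organelles in which proteins, glycan chains and lipids are broken down to units that the cell can reuse. Most hydrolases are made in the endoplasmic reticulum, tagged with mannose 6-phosphate and carried to the lysosome, whose membrane is lined by heavily glycosylated proteins such as Lamp1 and Lamp2. Transcription factor EB, encoded by Tfeb, binds an E-box called the CLEAR element in the promoters of many of these genes. In skin, fibroblasts take up and degrade collagen and proteoglycans through this route, and the activity of lysosomal beta-galactosidase, encoded by Glb1, is a widely used marker of senescent cells.

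To show where the E-box lies, RefSeq promoters (build GRCm38.p6, 250 bases before to 50 after each start) were searched for CACGTG and for the longer TCACGTGA, which contains it. Each reads the same on the opposite strand, so both strands were covered. Of 36 members with an entry, 12 (33.3%) held CACGTG, against 8.09% of all genes in the promoter table and 10.2% of the genes tested on the arrays. The longer form stood in 4 (11.1%), against 1.12% and 1.67%. Ctsb, Ctsh, Galns, Asah1 and Npc1 had no entry. CACGTG was present in 5 of 9 members called lower in old fibroblasts, in 0 of 5 called higher and in 7 of 20 not called. Over all genes it was in 11.9% of those called lower, 11% of those called higher and 9.95% of those not called. No test was made of these shares. These are matches of letters, and binding was not measured. The windows below hold 1 core in capitals, read 5′ to 3′ on the gene's strand. The first 5 are members that were lower in old cells, and the other 4 hold the longer form and were not called.
Glb1, chr9:114401013-114401052, plus strand: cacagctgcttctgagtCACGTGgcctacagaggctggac
Naglu, chr11:101070004-101070043, plus strand: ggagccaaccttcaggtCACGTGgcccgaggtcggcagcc
Gaa, chr11:119267806-119267845, plus strand: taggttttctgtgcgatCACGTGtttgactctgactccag
Ctsf, chr19:4855069-4855108, plus strand: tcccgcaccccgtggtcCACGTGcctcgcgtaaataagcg
Arsa, chr15:89477418-89477457, minus strand: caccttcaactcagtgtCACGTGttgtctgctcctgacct
Ctsd, chr7:142387903-142387942, minus strand: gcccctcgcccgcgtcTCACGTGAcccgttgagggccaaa
Gla, chrX:134601177-134601216, minus strand: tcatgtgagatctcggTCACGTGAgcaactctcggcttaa
Mcoln1, chr8:3500457-3500496, plus strand: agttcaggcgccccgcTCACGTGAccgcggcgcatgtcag
Ctsa, chr2:164833744-164833783, plus strand: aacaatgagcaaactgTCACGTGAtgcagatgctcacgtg
In these windows the core began 48 bases before the start in Glb1, 73 in Naglu, 140 in Gaa, 79 in Ctsf and 16 in Arsa. The Lamp1 promoter held 4 copies of CACGTG, the first 61 and the last 15 bases before its start. A further TCACGTGA stood 227 bases before the start in Gla and 5 bases after it in Ctsa, where part of it ends the window in small letters. A further CACGTG stood 245 bases before the start in Ctsd and 71 in Mcoln1.

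Several facts of the whole series bear on these values. The 9 fibroblast and sort-gate markers were all above the level of silent genes (4.74, the 95th percentile of 41 olfactory receptor genes), and Dcn, the brightest, read 12.79 in young and 12.70 in old. Of these 9 markers 0 were called higher and 1 lower (1 and 3 at an unadjusted p under 0.05). Col3a1 fell by 0.28 (adjusted p = 0.00765), and no single-array omission ended its call. Keratinocyte markers were present and varied: their list mean lay between 6.80 and 7.90 in young and between 7.42 and 8.62 in old arrays, with 3 of 12 called higher (Krt5, Krt14 and Perp), 1 called lower (Trp63), and Epcam and Cdh1 at or below the level of silent genes on average. Epcam and Cdh1 were highest in old replicate 4 (4.99 and 5.66). Epcam was higher in every old array but not called (adjusted p = 0.0746), and Cdh1 averaged 4.83 in old arrays against 4.18 in young (adjusted p = 0.102). At an unadjusted p under 0.05, 7 of the 12 were higher and 1 lower. The count of higher calls depended on single arrays: it was 1, Krt14, without young replicate 1, 2 or 4 or old replicate 2, 3 or 4, and it was 5 without young replicate 3, while Trp63 lost its call in 5 of 8 omissions. An index of non-specific background, the mean of 10 control probe sets with 16 or more G and C bases, lay between 5.94 and 6.21 in young and between 5.24 and 5.80 in old arrays, a difference of -0.54, so it separated the ages. Of 7 endothelial markers Tek and Tie1 rose, by 1.73 (adjusted p = 0.00111) and 0.35 (a call lost in 6 of 8 single-array omissions). On average 4 of the 7, Tie1 among them, were at or below the level of silent genes. The other 5 did not pass, among them the brightest, Kdr (0.14, adjusted p = 0.869), Pecam1 (0.37, adjusted p = 0.294) and Cldn5 (-0.26, adjusted p = 0.173). The list means of mast cell, adipocyte, Schwann cell and T cell markers lay between 3.91 and 5.88, and limma called none of these 14 genes (1 at an unadjusted p under 0.05). The part of RNA from other cells in the results was not tested.

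Of the 39 measured members, 6 rose, 11 fell and 22 did not pass the test in old fibroblasts. The 17 called members make up 43.6% of those measured, against 17.5% of all genes tested. Among all genes 9.87% were called higher and 7.66% lower, and among the members 15.4% and 28.2%. Of the 39 members 37 lay above the level of silent genes, whereas all genes include silent ones. The share called among genes above that level was not counted, so these shares cannot be read as an excess particular to lysosomal genes. The median difference of the members was -0.11, against 0.01 over all genes. Of the 39 differences 25 lay below 0, against 8180 of 17097 over all genes. All 4 old values lay above all 4 young values in 7 members and below them in 15, where 11.7% and 9.66% of all genes did so. In each single-array omission, between 5 and 6 members were called higher and between 8 and 11 lower.

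**Figure D1:**
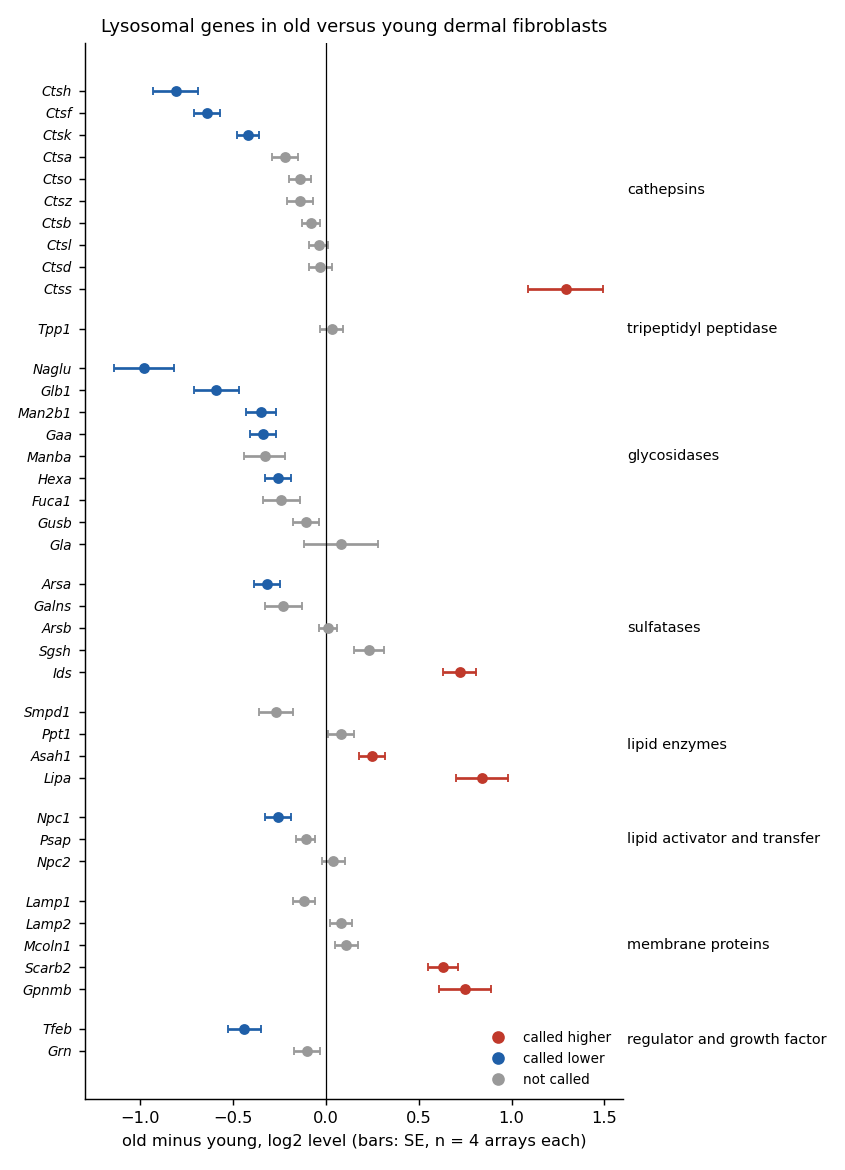
Old minus young difference in log2 level for the 39 measured members, grouped by class, with the SE of the difference as bars (4 arrays in each group). Red marks members called higher, blue those called lower and grey those not called; Ctss (1.29) and Naglu (-0.98) lie at the ends, and no glycosidase is red.

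Cathepsins are the proteases of the lysosome. Most listed here are cysteine proteases, whereas Ctsd is an aspartic and Ctsa a serine enzyme. Of 10 cathepsins, 3 fell (Ctsh, Ctsf and Ctsk), 1 rose (Ctss) and 6 did not pass, with a median difference of -0.14. Of their differences, 9 of 10 were below 0, against 8180 of 17097 over all genes. With the mean over all probe sets or the most variable probe set it was 7 of 10, as Ctsa and Ctsl turned sign.

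Ctsh, an aminopeptidase among the cathepsins, read 11.59, 11.61, 11.70 and 11.56 in young and 11.11, 10.78, 10.85 and 10.48 in old arrays. The old animals were all lower and more widely spread (SD 0.26 against 0.06). The difference was -0.81 ± 0.12 (SE, adjusted p = 0.00126), or 1.75-fold. Ctsf, whose propeptide carries a cystatin-like domain, read 9.36, 9.24, 9.45 and 9.38 in young and 8.64, 8.73, 8.75 and 8.77 in old arrays. The groups were tight and well apart, with a difference of -0.64 ± 0.07 (SE, adjusted p = 2.2e-04). A second Ctsf probe set gave -0.30 (adjusted p = 0.0535 over all single-symbol probe sets).

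Ctsk, the cathepsin best known for cutting triple-helical collagen, read 12.20, 12.03, 12.19 and 12.12 in young and 11.66, 11.73, 11.76 and 11.71 in old arrays. It fell by 0.42 on the log2 scale (1.34-fold, adjusted p = 0.00147), with no overlap between the ages. The highest value of any probe set in the table was 13.04. Ctsl, a broad endopeptidase in the same range, read 12.16, 12.15, 12.15 and 12.14 in young and 12.16, 12.06, 12.07 and 12.14 in old arrays. Its groups overlapped, with a difference of -0.04 (adjusted p = 0.667) and the smallest SD of any member in young animals (0.01).

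Ctss moved the other way. This cathepsin trims the invariant chain of class II antigen presentation and is known from antigen-presenting cells. It read 4.88, 4.26, 4.39 and 4.89 in young and 5.75, 6.36, 6.00 and 5.47 in old arrays. Every old value lay above every young one, and the young mean (4.61) was below the level of silent genes (4.74). The fitted difference was 1.29 ± 0.20 (SE, adjusted p = 0.00205), and old replicate 2 was the highest array. With the 2 young arrays under the level of silent genes set to that level, the young mean became 4.81. The difference was then 1.08, or 2.12-fold, an estimate of the old arrays against the young and not a lower bound.

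Macrophage and dendritic markers were set beside Ctss for this reason. Of 18 such markers, 2 rose, 2 fell and 14 did not pass, and 9 of them, with Ptprc (which encodes CD45) and Adgre1 among them, were at or below the level of silent genes. At an unadjusted p under 0.05, 4 of the 18 were higher and 2 lower. Fcer1g (0.37, adjusted p = 0.0508) and Ptprc (0.17, adjusted p = 0.101) were not called, but every old value lay above every young one. The list mean lay between 4.80 and 4.89 in young and between 4.82 and 4.87 in old arrays. Lyz2 (lysozyme) rose by 1.08 (adjusted p = 0.00155) from a young mean of 4.72, also under the level of silent genes, to 5.80, and Tyrobp, an adaptor of myeloid receptors, by 0.66 (adjusted p = 0.0148), with old replicate 2 the highest array for both. Csf1r, the receptor for macrophage colony-stimulating factor, fell by 1.92 on the log2 scale (adjusted p = 5.9e-06), and the Fc receptor gene Fcgr3 fell by 1.32 (adjusted p = 1.8e-04). The part of myeloid RNA in the Ctss value was not tested. In sorted bulk samples, a different number of cells of a type and a different amount of RNA per cell cannot be told apart.

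**Figure D2:**
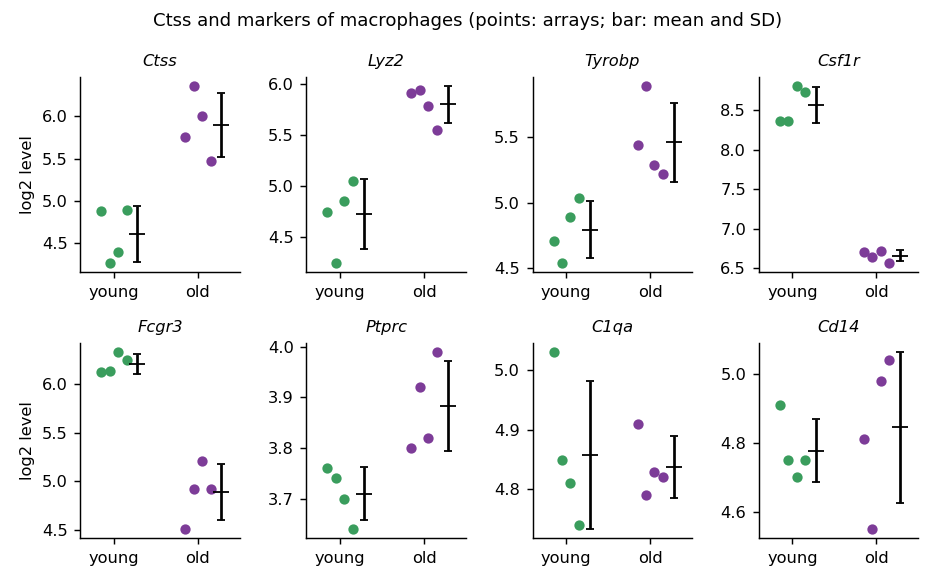
Log2 level of Ctss and of 7 macrophage markers in each array (points), with the mean and SD of 4 young and 4 old animals (bars); each panel has its own axis. Ctss, Lyz2 and Tyrobp were higher in all old arrays, Csf1r and Fcgr3 were lower in all, and C1qa and Cd14 overlapped. Ptprc lay below the level of silent genes throughout, and was higher in all old arrays but not called.

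The other cathepsins differed little or not detectably. Ctsb, the most studied of the cysteine cathepsins, had a difference of -0.08 (adjusted p = 0.412), and its 4 probe sets ran from -0.33 to 0.13 with none called. Ctsd, the main aspartic protease of the lysosome, read 10.76 in young and 10.74 in old (difference -0.03), and Ctsz differed by -0.14. Ctsa, which also protects beta-galactosidase and neuraminidase from degradation, differed by -0.22 (adjusted p = 0.0694), but its dimmer probe set gave 0.29 (adjusted p = 0.0441), so the direction for this gene depends on the probe set. Ctso lay below the level of silent genes in both groups. Tpp1, a tripeptidyl peptidase outside the cathepsin family, differed by 0.03 with overlapping groups.

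Glycosidases remove sugars from glycoproteins, glycolipids, glycosaminoglycans and glycogen. Of 9 measured glycosidases 5 fell, 0 rose and 4 did not pass by limma (7 lower and 0 higher at an unadjusted p under 0.05), and at 8 of 9 the difference was below 0. Their median difference was -0.33. The 5 are Naglu, Glb1, Man2b1, Gaa and Hexa. Without young replicate 3, 3 were called lower, since Man2b1 (adjusted p = 0.0503) and Hexa lost their calls.

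Naglu, which removes N-acetylglucosamine from heparan sulfate, read 8.76, 8.44, 8.77 and 8.71 in young and 7.86, 7.88, 7.85 and 7.15 in old arrays. All old values were lower, and old replicate 4 lay well below the other old arrays. It fell by 0.98 on the log2 scale, with an SE of 0.16 (1.98-fold, adjusted p = 0.00254). Glb1, the beta-galactosidase of the senescence assay, read 8.31, 8.24, 8.42 and 8.25 in young and 7.60, 7.62 and 7.55 in old replicates 2 to 4, with 8.09 in old replicate 1. The transcript was lower in old fibroblasts, by 0.59 ± 0.12 (SE, adjusted p = 0.00665), and old replicate 1 was nearest to the young range.

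Gaa, the acid alpha-glucosidase of glycogen breakdown, read 10.19, 10.05, 10.26 and 10.13 in young and 9.81, 9.78, 9.77 and 9.89 in old arrays, a difference of -0.34 (adjusted p = 0.00558). Man2b1, a mannosidase of N-glycan breakdown, read 10.72, 10.65, 10.83 and 10.73 in young and 10.55, 10.34, 10.44 and 10.21 in old arrays (-0.35, adjusted p = 0.0158). Neither pair of groups overlapped. Hexa, a subunit of beta-hexosaminidase that acts on gangliosides, differed by -0.26 (adjusted p = 0.0392), but leaving out an array other than young replicate 2 or old replicate 2 ended that call (adjusted p up to 0.105), as did median centring (adjusted p = 0.0502) and the specimen number as a block (adjusted p = 0.0712). Manba (-0.33, adjusted p = 0.0636), Fuca1 (-0.24, adjusted p = 0.153) and Gusb (-0.11) did not pass. Gla, an alpha-galactosidase of glycolipid breakdown, was the 1 glycosidase with a difference above 0 (0.08, adjusted p = 0.848), and it had the widest spread of any member in young animals (SD 0.35).

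**Figure D3:**
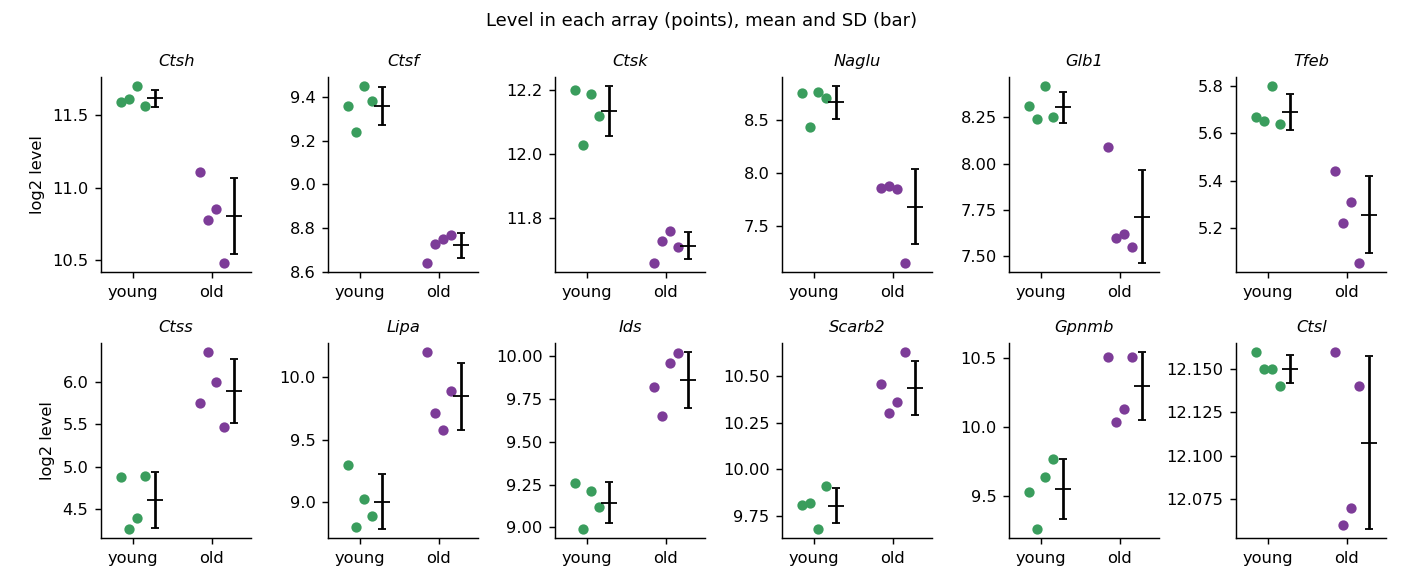
Log2 level in each array (points) with mean and SD (bars) for 12 members in 4 young and 4 old animals; each panel has its own axis. The 6 upper genes, from Ctsh to Tfeb, were lower in every old array, the next 5, from Ctss to Gpnmb, were higher in every old array, and all Ctsl values lie between 12.06 and 12.16.

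Sulfatases take sulfate groups off glycosaminoglycans and sulfated lipids, and they moved both ways. Of 5 sulfatases 1 rose, 1 fell and 3 did not pass, with a median difference of 0.01. Ids, the iduronate sulfatase that starts the breakdown of heparan and dermatan sulfate, read 9.26, 8.99, 9.21 and 9.12 in young and 9.82, 9.65, 9.96 and 10.02 in old arrays. It rose by 0.72 ± 0.09 (SE, adjusted p = 8.0e-04), without overlap. The 5 other Ids probe sets also had differences above 0, from 0.14 to 0.60, and 2 of them were called. Arsa, which acts on sulfatide, read 8.37, 8.40, 8.51 and 8.42 in young and 8.22, 7.98, 8.17 and 8.05 in old arrays, a difference of -0.32 (adjusted p = 0.012) with the groups apart.

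Sgsh differed by 0.23 (adjusted p = 0.0794), and its dimmer probe set by 0.01 (adjusted p = 0.938). Galns differed by -0.23 (adjusted p = 0.155), and Arsb lay below the level of silent genes. Enzymes of heparan sulfate breakdown therefore did not share a direction: Ids rose, Naglu fell, and Sgsh and Gusb (-0.11) did not pass. Sumf1, whose product activates all sulfatases by modifying a cysteine in their active site, read 9.20, 8.97, 9.22 and 9.03 in young and 9.76, 9.48, 9.56 and 9.82 in old arrays and rose by 0.55 (adjusted p = 0.00338).

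The lipid enzymes Lipa and Asah1 rose, and Ppt1 and Smpd1 did not pass. Lipa, the acid lipase that hydrolyses cholesteryl esters and triglycerides, read 9.30, 8.80, 9.03 and 8.89 in young and 10.20, 9.71, 9.58 and 9.89 in old arrays. The lowest old array (9.58) lay above the highest young array (9.30). The rise was 0.84 ± 0.14 (SE, 1.79-fold, adjusted p = 0.00343), and its other 2 probe sets rose by 0.64 and 0.34. Asah1, acid ceramidase, rose by 0.25 (adjusted p = 0.0412), but leaving out any array other than young replicate 1 ended the call (adjusted p up to 0.0911), as did median centring, a further quantile normalization and the specimen number as a block (adjusted p = 0.0561). Smpd1, acid sphingomyelinase, differed by -0.27 (adjusted p = 0.0549), and its dimmer probe set was called lower (-0.35, adjusted p = 0.0103). Ppt1, a thioesterase that removes palmitate from proteins, differed by 0.08. The median of these 4 was 0.16.

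Among proteins that assist lipid breakdown or export, Npc1, the membrane transporter that moves cholesterol out of the lysosome, fell by 0.26 (adjusted p = 0.0276). The call ended when an array other than young replicate 1 or old replicate 1 was left out (adjusted p up to 0.0754). Its soluble partner Npc2 differed by 0.04 (adjusted p = 0.673) at a level of 12.32 in young. Psap, the precursor of the saposins that present sphingolipids to their hydrolases, was lower in all old arrays by a small amount (-0.11, adjusted p = 0.187), and a second probe set gave -0.35 (adjusted p = 0.0851).

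Of the 5 membrane proteins Scarb2 and Gpnmb rose and 3 did not pass, with a median of 0.11. Scarb2 encodes LIMP-2, which carries glucocerebrosidase to the lysosome. It read 9.81, 9.82, 9.68 and 9.91 in young and 10.46, 10.30, 10.36 and 10.63 in old arrays. The ages did not overlap, the difference was 0.63 ± 0.08 (SE, adjusted p = 8.6e-04), and the second probe set rose by 0.56. Gpnmb, a glycoprotein induced in macrophages when lysosomes are overloaded and abundant in melanocytes, read 9.53, 9.26, 9.64 and 9.77 in young and 10.51, 10.04, 10.13 and 10.51 in old arrays. It rose by 0.75 (adjusted p = 0.00501), with every old array higher. Of 9 melanocyte markers 0 rose and 1, Mlana, fell by limma (0 and 2 at an unadjusted p under 0.05). Mlana lost its call in 5 of 8 single-array omissions. On average 7 of the 9 (Mlana, Tyr and Dct among them) were at or below the level of silent genes. The brightest, Sox10, differed by -0.06 (adjusted p = 0.619). The list mean lay between 4.34 and 4.48 in young and between 4.26 and 4.38 in old arrays.

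The abundant membrane glycoproteins differed little. Lamp1 read 11.80, 11.74, 11.83 and 11.77 in young and 11.62, 11.63, 11.74 and 11.66 in old arrays. Its groups touched at 11.74 (difference -0.12, adjusted p = 0.184). Lamp2 differed by 0.08 (adjusted p = 0.43), and the calcium channel gene Mcoln1 by 0.11 (adjusted p = 0.262), with its 3 probe sets between 0.09 and 0.18.

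Tfeb, the transcription factor for many of these genes, read 5.67, 5.65, 5.80 and 5.64 in young and 5.44, 5.22, 5.31 and 5.05 in old arrays. It fell by 0.44 on the log2 scale, with an SE of 0.09 (1.35-fold, adjusted p = 0.00739), and the groups did not overlap. Grn, the progranulin precursor whose fragments act in the lysosome, differed by -0.10 (adjusted p = 0.33) at 12.06 in young.

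The classes were also set side by side, with no test of a difference between them. Averaged per array after centring each gene, glycosidases lay between 0.09 and 0.26 in young and between -0.29 and -0.13 in old animals. Lipid enzymes lay between -0.21 and -0.04 in young and between 0.01 and 0.28 in old, and membrane proteins between -0.22 and -0.10 and between 0.06 and 0.21. Cathepsins lay between -0.02 and 0.12 in young and between -0.14 and -0.04 in old animals. Sulfatases overlapped between the ages. The lipid enzymes are 4 genes, of which Smpd1 had a difference below 0, and their median was 0.00 with the most variable probe set of each gene. Together with the activator and transfer genes, the 7 lipid genes overlapped between the ages (-0.11 to -0.01 in young, -0.02 to 0.15 in old), with a median difference of 0.04.

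**Figure D4:**
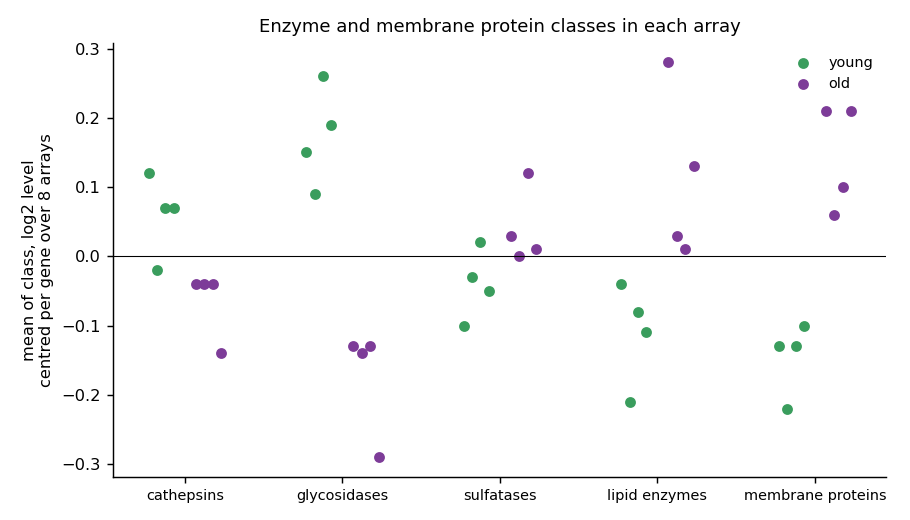
Mean log2 level of each class in each array, after centring every gene on its mean over the 8 arrays; points are arrays of 4 young (green) and 4 old (purple) animals. Glycosidases are lower in old arrays (-0.29 to -0.13), lipid enzymes (0.01 to 0.28) and membrane proteins (0.06 to 0.21) are higher, and sulfatases overlap.

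With this background index added to the model, limma called 0 members in either direction, and 67 genes higher and 94 lower in all. At an unadjusted p under 0.05, 4 members were higher and 11 lower with it. The share of all genes under that threshold was not counted, so these counts cannot be read as an excess. The index separated the ages, and the median SE of the members was 0.142 with the covariate against 0.073 without it. All 17 called members kept their direction. Hexa (-0.16) and Gpnmb (0.47) became smaller by over 1.5 times, and the estimates nearest to a call were those of Ids (0.90, adjusted p = 0.0612), Smpd1 (-0.58, adjusted p = 0.0815, against -0.27 without the index), Ctss (1.68, adjusted p = 0.0911) and Ctsf (-0.54, adjusted p = 0.0971). Glb1 was -0.87 (adjusted p = 0.105) and Naglu -0.82 (adjusted p = 0.325).

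**Figure D5:**
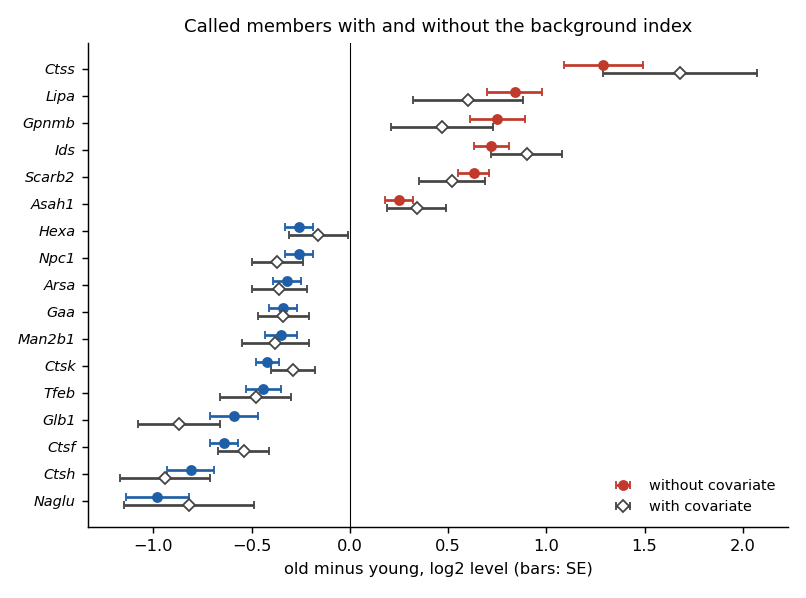
Old minus young difference in log2 level (bars: SE) of the 17 called members without a covariate (filled; red higher, blue lower) and with the background index in the model (open diamonds). All 17 estimates keep their side of 0, and the bars are wider with the covariate.

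Beyond the members, other genes of the lysosomal system were counted in the same fit, in which 9.87% of all genes were called higher and 7.66% lower. Of 18 further measured hydrolases 3 rose and 4 fell, with a median difference of -0.07. The lower count fell to 1, Aga, after median centring and without any 1 young replicate or old replicate 2, and to 2 without old replicate 3 or 4, whereas 3 were higher in every single-array omission. Aga, which cleaves the sugar from asparagine, fell by 0.48 (adjusted p = 0.00377). Pla2g15, a lysosomal phospholipase, rose by 0.41 (adjusted p = 0.0111), and acid phosphatase Acp2 rose by 0.40 (adjusted p = 0.00242). Of 13 further membrane proteins Laptm4b fell by 0.40 (adjusted p = 0.0104) and Cln3 rose by 0.37 (adjusted p = 0.0142), a call lost with the mean over probe sets.

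The proton pump that acidifies the lysosome differed little: of 13 measured V-ATPase genes 1 fell, Atp6v0e (-0.26, adjusted p = 0.0149), and 0 rose by limma (1 and 0 at an unadjusted p under 0.05), with a median of 0.03. Of 9 genes of mannose 6-phosphate targeting and hydrolase maturation, Sumf1 and Gnptab rose and Gga1 fell. Gnptab, which makes the mannose 6-phosphate tag, rose by 0.32 (adjusted p = 0.00648), and the sorting adaptor Gga1 fell by 0.22 (adjusted p = 0.0261). Gga1 lost its call without any array except young replicate 1 or old replicate 3 (adjusted p up to 0.079), and Gga1 and Gnptab lost theirs with the mean over probe sets. Gga1 also lost its call with the specimen number as a block. Of 8 cathepsin inhibitors 0 were called by limma (0 at an unadjusted p under 0.05), and 4 of them were at or below the level of silent genes.

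Among 18 genes of the Tfeb family and of mTORC1 control at the lysosome, 2 rose and 2 fell, with a median of 0.02. These calls depended on single arrays: without young replicate 3 none of the 4 kept its call, and without young replicate 1 or 2 only Lamtor2 did. Mitf, a relative of Tfeb, rose by 0.30 (adjusted p = 0.0299), a call lost in 6 of 8 omissions (adjusted p up to 0.0812). Rragc, a GTPase that recruits mTORC1, rose by 0.25 (adjusted p = 0.0236, lost without young replicate 1, 2 or 3), and Lamtor2, a subunit of its lysosomal anchor, fell by 0.27 (adjusted p = 0.0157, and 0.0504 without young replicate 3). Of 20 autophagy genes 2 were called, where 17.5% of all genes were. Wipi1, which binds phosphoinositides at forming autophagosomes, fell by 0.67 (adjusted p = 0.00173), and Vps33a, of the complexes that tether lysosomes for fusion, rose by 0.56 (adjusted p = 8.9e-04).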

How the data were processed

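The deposited table holds log2 probe set levels of 8 arrays, made by the authors with RMA and the R package affy per the submitters' processing notes, without versions. RMA evens out array distributions and compresses differences near background and near the top. Per the labels' protocols, 6 ng of RNA were amplified and 8 micrograms of cDNA labelled. The table has 45141 probe sets, of which 28898 carry 1 symbol in the platform annotation, and array medians lie between 5.19 and 5.34. The number of arrays limits the precision.

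Genes (17097, probe set of highest mean) were tested, old against young, by the moderated linear model of limma 3.58.1 (R 4.3.3) with age as its only term, and p-values (2-sided) were adjusted over all genes by Benjamini-Hochberg. Counts at an unadjusted p under 0.05 stand without the share of all genes under it, so they cannot be read as an excess. The script was tested on simulated data. Figures were drawn with matplotlib 3.10.9. Members, classes, related lists and markers were chosen with earlier results of these data known. Values of every array are given for the 14 called members of largest difference and for Ctsl and Lamp1, and up to 3 called genes are named per related list. For marker lists the brightest gene and that of smallest p were to be named. This was not done for the mast cell, adipocyte, Schwann cell and T cell lists. The other marker genes were named after their values were seen. Alternatives covered a replicate block, scaling, dim genes, probe set choice, variance settings, array weights and each array left out. A background covariate from GC-rich non-specific control probe sets was chosen after seeing the data. Per the series' design text 1 young and 1 old animal were taken per day, but nothing ties specimen numbers to days, so the block was not used in the reported test.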

Additional observations from a re-analysis of the deposited data

Results flagged for a closer look

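Of 78 groups of 4 arrays (39 members, 2 ages), 6 held an array whose gap to the nearest other, as a share of the group's range, exceeded Dixon's critical value, where chance gives about 1 in 20, or 3.9. Old replicate 4 read 7.15 for Naglu, against 7.85 to 7.88 in the other old arrays, and 11.81 for Ctsb, against 11.90 to 11.91. It also had the highest keratinocyte list mean (8.62), whose part in these values was not tested. Without it the call of Naglu was kept. Old replicate 1 read 8.09 for Glb1, against 7.55 to 7.62, 12.46 for Npc2, against 12.32 to 12.34, and 11.38 for Lamp2, against 11.18 to 11.21. It had the lowest background index (5.24). Young replicate 1 read 7.74 for Smpd1, against 7.94 to 7.98, and had the highest index (6.21).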

How the results depend on the processing

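Under the other settings tried, apart from the covariate below, the count of members stayed within 5 to 7 higher and 8 to 13 lower (6 and 11 as reported). With the background index as a covariate, chosen after seeing the data, both counts were 0 by limma, and the cause was not tested; the index separated the ages, and SEs were wider. Leaving out single arrays gave 5 to 6 higher and 8 to 11 lower. Of 17 called members, 13 kept their call under each alternative except that covariate; Hexa, Man2b1, Asah1 and Npc1 did not. With the specimen number as a replicate block, 5 members were higher and 11 lower: Hexa (adjusted p = 0.0712) and Asah1 (0.0561) lost their calls and Manba (0.0473) gained one. Same-numbered arrays correlated in their deviations from the group means at 0.285, 0.052, -0.044 and 0.224, and not every young array correlated best with the old array of its own number. The block was kept as an alternative because nothing ties specimen numbers to days. These correlations cannot decide whether the numbers mark a shared day, which is not known.

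Class medians moved beyond the spread between arrays in these cases. With the covariate they were -0.09 for cathepsins, -0.21 for glycosidases, -0.05 for lipid activator and transfer genes and 0.18 for membrane proteins. With the most variable probe set they were 0.00 for lipid enzymes, -0.26 for activator and transfer genes, -0.24 for these 7 lipid genes together and 0.18 for membrane proteins, and with the mean over probe sets -0.23 and -0.02 for activator and transfer genes and for the 7 together. For glycosidases, single arrays left out gave -0.38 to -0.26.

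Signs turned only for uncalled members: Ctsa (0.04 with the mean over probe sets, 0.29 with the most variable one), Ctsl (0.02 and 0.09), Ppt1 (-0.02 and -0.24, and -0.02 with the covariate), Npc2 and Lamp2 (-0.02 each with the covariate), Tpp1 (-0.02 after quantile normalization), Arsb (-0.01 after median centring or without old replicate 4), and, with single arrays left out, Ctsd (-0.06 to 0.01) and Gla (-0.09 to 0.24).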

Other observations

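Gla, which did not pass the test with age, ranked the animals alike in both groups. The arrays numbered 1 were lowest, at 7.55 in young and 7.65 in old, while the others lay between 8.09 and 8.31 in young and between 8.16 and 8.39 in old. Its second probe set read 7.27 and 7.38 in the arrays numbered 1, against 7.70 to 7.83 and 7.63 to 8.06 in the others. On each collection day 1 young and 1 old animal were taken, without a record here of which specimens shared a day. The gene was singled out after its values were seen.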
